A study of Mus musculus with 4 samples.

Results

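The 2 single treatments of a mouse feeding study were compared with each other: a diet with conjugated linoleic acid (CLA) and injection of GW6471, an antagonist of the nuclear receptor PPARα. Members were all genes with a mean of at least 1 FPKM over the 4 libraries, which were 10355 of the 15500 genes listed. FPKM is a level per transcript length, namely the fragments counted on a gene divided by its transcript length and by the mapped fragments of that library. The contrast is the log2 ratio of FPKM + 0.1 in the CLA library over that in the GW6471 library, so a positive value means higher in CLA, and the added 0.1 understates the ratio of low genes. The question is which genes tell the 2 single treatments apart.

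All mice were male, of the outbred Kunming stock, 5 weeks old when bought, and livers were taken after 28 days at zeitgeber time 8, that is 8 h after lights on. Vehicle mice ate chow with 1.5% (w/w) linoleic acid. CLA mice ate chow with 1.5% CLA, a mixture of conjugated isomers of linoleic acid, in place of the linoleic acid. GW6471 mice ate the linoleic acid chow and received 20 mg/kg GW6471 by daily intraperitoneal injection, and CLA+GW6471 mice received both the CLA chow and the injections. The labels give 6 mice per group but the files hold 1 library per condition, and no source used here says whether RNA of several mice was pooled. For both libraries with GW6471 the condition is known from the labels only, which state that the vehicle was injected when appropriate. The CLA and GW6471 libraries therefore differ in both diet and injection, and these cannot be told apart from this pair alone.

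A single library per condition leaves no replicate error to set a difference against, and no p-value is given. Each difference describes these libraries, and genes are called by size alone, at least 2-fold or at least 1.5-fold. Depth was estimated at 18800000 (CLA) to 19300000 (CLA+GW6471) reads per library, and counting intervals (95%, exact Clopper-Pearson) given below cover counting error only, refer to the ratio of FPKM without the added 0.1, and say nothing of the difference between animals. FPKM summed to 522893 in CLA and 497015 in GW6471. Albumin (Alb), the main protein hepatocytes secrete, was at 1322 FPKM in CLA and 1067 in GW6471. Of the 24 listed genes for hepatocyte plasma proteins, however, 14 had a mean under 1 FPKM. Ttr, the thyroid hormone carrier transthyretin, was at 0.04 FPKM in CLA and listed at 0 in GW6471, and Fga, the alpha chain of fibrinogen, was at 0.02 and 0.07 while Fgb, the beta chain, was at 138 and 86.4. The highest gene in all 4 libraries was Sprr1a, a protein of the cornified envelope of squamous epithelium, at 15810 FPKM in CLA and 18795 in GW6471. Albumin was thus abundant but far under Sprr1a, and most of the listed plasma protein genes were under 1 FPKM. That the material was liver is known from the label only.

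PPARα is a nuclear receptor that fatty acids and their derivatives bind. With its partner RXR it sits on DNA near genes of fatty acid uptake, oxidation and ketone body synthesis and switches them on in fasting, when the liver burns fat. CLA isomers are among its fatty acid ligands, and GW6471 binds the same pocket and favours the binding of corepressors over coactivators. Some of its target genes, among them Pdk4, Angptl4, Cpt1a and Plin2, are also targets of the related receptor PPARδ, and fatty acids raise them in many cell types.

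The CLA and GW6471 libraries were close to each other. Of 10355 genes, 39 (0.377%) were at least 2-fold apart, 20 of them higher in CLA (0.193%) and 19 lower (0.183%). At 1.5-fold, 223 genes were higher in CLA (2.15%) and 153 lower (1.48%), 3.63% in all. The ratio was under 1.2-fold in 72.0% of genes and under 1.5-fold in 96.4%, with a median log2 ratio of 0.0066 and quartiles of −0.15 and 0.17. Yet 53.4% of the 10233 genes with a known length had a ratio whose counting interval left out 0, so counting error alone is a weak criterion here and it is not used for calls.

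Beside the other pairs of libraries, CLA and GW6471 ranked as the second closest. The fewest genes at least 2-fold apart were found between Vehicle and CLA+GW6471, with 31 genes (0.299%). Between Vehicle and GW6471 there were 90 (0.869%), between GW6471 and CLA+GW6471 120 (1.16%), between Vehicle and CLA 262 (2.53%) and between CLA and CLA+GW6471 407 (3.93%). The median absolute log2 ratio over all genes was 0.16 for CLA and GW6471, 0.093 for Vehicle and CLA+GW6471, 0.16 also for Vehicle and GW6471, 0.19 for GW6471 and CLA+GW6471, 0.23 for Vehicle and CLA, and 0.25 for CLA and CLA+GW6471, so that by this measure the second place was hardly apart from the third. Thus each single treatment lay nearer to the other single treatment than to the library that combined them, and the untreated and the combined library lay nearest of all. These pairs share libraries and are not independent of each other.

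**Figure D1:**
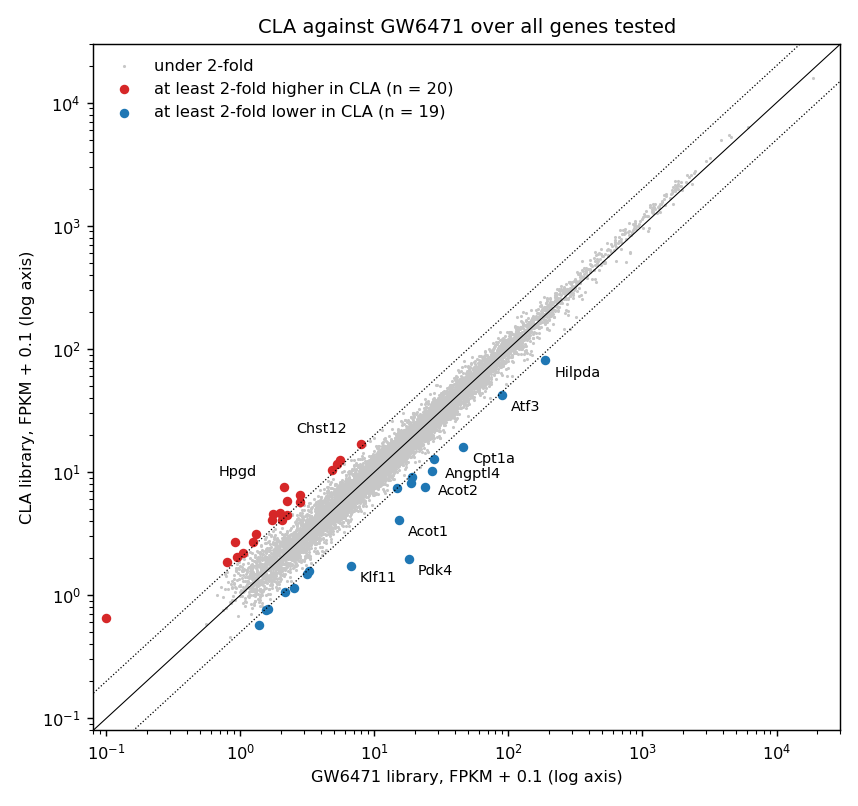
CLA library against GW6471 library, FPKM + 0.1 of 10355 genes on log axes, with the line of equality (solid) and the 2-fold limits (dotted). Most genes lie inside the limits, the 20 genes past the upper limit (red) are mostly low in level, and the genes past the lower limit (blue) include Pdk4, the farthest from it, and Acot1, Cpt1a and Hilpda.

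The level of the genes differed between both sides. Of the 20 genes higher in CLA, 17 had a mean under 5 FPKM, against 8 of the 19 lower ones. Since 8197 of all 10355 genes tested had a mean of at least 5 FPKM, low genes were more common on both sides. Among the 8197 genes of at least 5 FPKM, 3 were higher in CLA (0.0366%) and 11 lower (0.134%). These 11 were Pdk4, Acot1, Acot2, Cpt1a, Angptl4, Hilpda, Jun, Fam71f2, Atf3, Creb5 and Fam171b.

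The libraries outside the contrast, Vehicle and CLA+GW6471, split the 39 genes into few patterns. Among the 19 genes lower in CLA, both libraries with GW6471 were at least 1.5-fold above both libraries without it for 10 genes: Pdk4, Klf11, Acot1, Acot2, Cpt1a, Angptl4, Pet117, Hilpda, Fam71f2 and Gm13152. Over all genes tested, 16 did so (0.155%). For 9 genes, CLA was at least 1.5-fold below each of the other 3 libraries: Jun, Gimap1, Srrm4, Atf3, Gm4340, Creb5, Zfp369, Fam171b and again Acot2, out of 88 such genes in all (0.85%). Cep85l was in neither group. Among the 20 genes higher in CLA, CLA was at least 1.5-fold above each other library for 15, out of 118 such genes in all (1.14%), and both libraries with GW6471 were at least 1.5-fold below both without for 3, Slco1a5, Psca and Tprg, out of 8 in all (0.0773%). Since each pattern needs a difference between CLA and GW6471, these counts describe the genes and are no support for them.

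The first group holds the lowest ratios of CLA over GW6471, beside genes near the 2-fold limit such as Fam71f2 and Gm13152. Below, 4 values in a row follow the order Vehicle, CLA, GW6471 and CLA+GW6471, the last also written as under both. Pdk4, the mitochondrial kinase that shuts off pyruvate dehydrogenase and so spares glucose when fat is burned, was at 1.17 FPKM in Vehicle, 1.87 under CLA, 17.99 under GW6471 and 15.6 under both. The 2 libraries with GW6471 were high and the 2 without it low, with no overlap. Pdk4 was 9.18-fold lower in CLA than in GW6471, which is −3.20 on the log2 scale (counting interval −3.55 to −3.00), the lowest ratio of all genes tested.

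Cpt1a, which loads fatty acids on carnitine for entry into mitochondria, was at 11.3 FPKM in Vehicle, 16.0 under CLA, 46.0 under GW6471 and 43.1 under both. Its log2 ratio was −1.52 (counting interval −1.62 to −1.43), and again the 2 libraries with GW6471 stood together above the other 2. Slc25a20, the carrier that takes acylcarnitine across the inner membrane, was at 4.12, 6.61, 9.83 and 8.34 FPKM in the same order, a log2 ratio of −0.57. Acadl, a dehydrogenase of long-chain acyl-CoA, was at 63.3, 81.8, 130 and 107 FPKM, a ratio of −0.67. For these 3 genes of mitochondrial fatty acid entry and oxidation, Vehicle was lowest, CLA lay above it, and the libraries with GW6471 lay above both.

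Acot1 and Acot2 encode thioesterases that split acyl-CoA into free fatty acid and coenzyme A, in the cytosol and in mitochondria. They are close paralogs that lie side by side on chromosome 12 on the same strand, Acot2 at chr12:85328811-85334823 and Acot1 at chr12:85350448-85358621 (mm9), and reads they share could have been split between them, so each level is uncertain. Acot1 was at 2.34 FPKM in Vehicle, 4.01 under CLA, 15.04 under GW6471 and 10.9 under both, a log2 ratio of −1.88 (counting interval −2.21 to −1.61). Acot2 was at 15.4, 7.41, 23.8 and 30.6 FPKM, a ratio of −1.67 (counting interval −1.87 to −1.49). The libraries with GW6471 were highest for both, but CLA was above Vehicle for Acot1 and below it for Acot2.

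Angptl4, a secreted inhibitor of lipoprotein lipase, was at 11.5 FPKM in Vehicle, 10.2 under CLA, 26.8 under GW6471 and 32.4 under both, a log2 ratio of −1.39 (counting interval −1.54 to −1.26). Hilpda, a small lipid droplet protein that inhibits the lipase ATGL, was at 90.2, 80.5, 188 and 227 FPKM, a ratio of −1.22 (counting interval −1.31 to −1.14). Plin2, the main coat protein of lipid droplets in liver, was at 212, 182, 318 and 396 FPKM, a ratio of −0.81 (counting interval −0.85 to −0.76). In all 3, CLA was the lowest library and CLA+GW6471 the highest. Fam71f2, whose function is little known, lies 4.146 kb downstream of Hilpda on the same strand of chromosome 6 (Hilpda at chr6:29222488-29225446, Fam71f2 at chr6:29229593-29240680, mm9) and was at 9.70, 12.7, 27.6 and 30.2 FPKM, a ratio of −1.11.

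Klf11, a zinc finger transcription factor, completed the group at 1.98 FPKM in Vehicle, 1.63 under CLA, 6.58 under GW6471 and 5.53 under both, a log2 ratio of −1.95 (counting interval −2.31 to −1.72). Its level was low, and it is named because its ratio was the second lowest of all genes tested. Pet117 and Gm13152 were also low, at 1.28 and 1.46 FPKM in GW6471 against 0.47 and 0.66 in CLA. Of the 16 genes with this pattern in the whole table, the remaining ones were under 2-fold between CLA and GW6471. These were Plin2, Prickle1 (a planar cell polarity gene, −0.99), Smox (spermine oxidase, −0.90), Abca1 (the cholesterol efflux pump, −0.69), Hist2h3c2 (a histone gene, −0.60) and Bcl2 (an inhibitor of apoptosis, −0.60). Apart from those given by the naming rule or its lists, these genes were chosen after their values were seen.

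**Figure D2:**
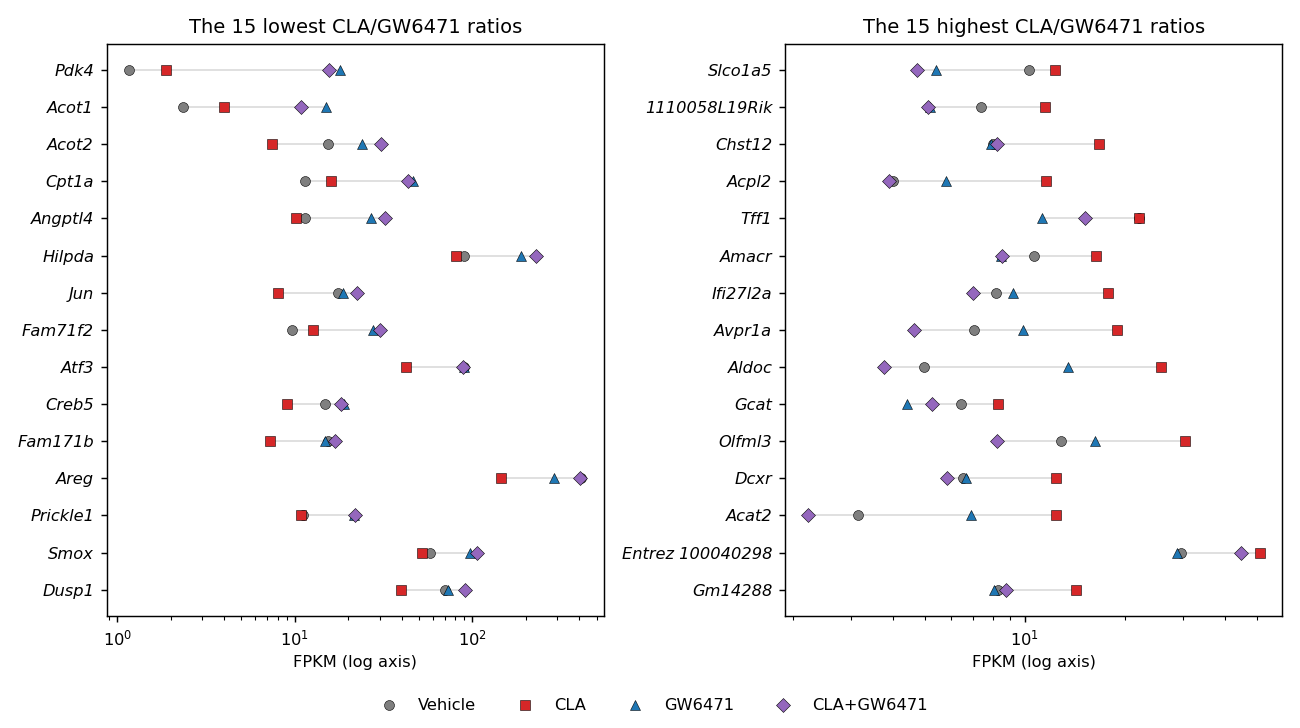
FPKM in the 4 libraries (log axes) of the 15 genes with the lowest and the 15 with the highest log2 ratio of CLA over GW6471, among genes with a mean of at least 5 FPKM, 1 point per library. On the left, triangles (GW6471) and diamonds (CLA+GW6471) lie to the right of squares (CLA) in every gene, whereas Vehicle (circles) sits with CLA for Pdk4, Cpt1a, Angptl4 and Hilpda and with GW6471 for Jun, Atf3 and Fam171b. On the right, CLA is the highest library except for Tff1, where Vehicle (22.1) and CLA (22.0) coincide.

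The promoters of 4 genes of this group are shown, since they are textbook fatty acid responders that were high together, and that of Atf3 is added from the second group below. Sequences are from RefSeq on GRCm38.p6 and run from 250 bases before to 50 bases after the annotated start, 5′ to 3′ on the gene's strand. Capitals mark matches, on either strand, to the motifs searched. AGGTCA is the core that PPARα, RXR and related receptors read. ACGTG is the core of the hypoxia element and lies within the E-box CACGTG, which clock factors read. TGANTCA is read by AP-1 and TGATGCAA by ATF4 and its partners, with TGATGAAA as a variant. Also searched were TCACCCCAC for sterols, TGACNNNGC for antioxidants, TTCNNNGAA for interferon with GAAANNGAA as a second form, TTATGNAA for the D-box and GAANNTTC for heat shock. The windows are Pdk4 chr6:5496229-5496528 (minus), Acot1 chr12:84009252-84009551 (plus), Cpt1a chr19:3323051-3323350 (plus), Hilpda chr6:29272376-29272675 (plus) and Atf3 chr1:191183284-191183583 (minus).
Pdk4: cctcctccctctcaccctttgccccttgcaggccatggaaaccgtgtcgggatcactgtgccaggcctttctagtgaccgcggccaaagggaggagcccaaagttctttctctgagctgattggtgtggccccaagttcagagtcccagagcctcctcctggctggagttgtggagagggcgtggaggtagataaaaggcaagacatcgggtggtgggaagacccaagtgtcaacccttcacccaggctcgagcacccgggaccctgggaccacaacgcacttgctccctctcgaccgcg
Acot1: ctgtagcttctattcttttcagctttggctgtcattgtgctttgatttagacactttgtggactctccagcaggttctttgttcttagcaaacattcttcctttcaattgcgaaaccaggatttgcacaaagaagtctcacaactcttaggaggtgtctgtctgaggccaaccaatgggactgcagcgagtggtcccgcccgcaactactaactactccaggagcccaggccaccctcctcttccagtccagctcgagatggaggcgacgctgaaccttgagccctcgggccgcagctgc
Cpt1a: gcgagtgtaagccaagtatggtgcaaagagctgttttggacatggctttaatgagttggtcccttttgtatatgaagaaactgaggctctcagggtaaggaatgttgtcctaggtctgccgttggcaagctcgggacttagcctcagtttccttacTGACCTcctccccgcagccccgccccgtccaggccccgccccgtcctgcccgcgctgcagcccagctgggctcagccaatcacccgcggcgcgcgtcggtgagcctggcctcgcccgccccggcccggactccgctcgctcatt
Hilpda: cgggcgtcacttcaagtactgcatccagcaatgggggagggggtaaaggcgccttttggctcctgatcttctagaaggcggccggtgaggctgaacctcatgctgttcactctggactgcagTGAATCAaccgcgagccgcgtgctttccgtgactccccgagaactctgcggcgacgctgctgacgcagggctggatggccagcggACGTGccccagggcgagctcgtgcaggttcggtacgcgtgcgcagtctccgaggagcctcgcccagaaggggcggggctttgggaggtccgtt
Atf3: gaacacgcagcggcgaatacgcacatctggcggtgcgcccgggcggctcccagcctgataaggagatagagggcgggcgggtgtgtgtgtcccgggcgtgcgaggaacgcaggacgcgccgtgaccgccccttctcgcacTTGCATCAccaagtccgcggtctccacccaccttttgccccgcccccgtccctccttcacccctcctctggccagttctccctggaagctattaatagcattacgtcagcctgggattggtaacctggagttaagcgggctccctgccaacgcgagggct

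The Pdk4 and Acot1 windows held none of these motifs, and the Cpt1a window held 1 AGGTCA, printed as its reverse complement. AGGTCA was present in 2 of the 20 promoters of genes lower in CLA (10%; Cpt1a and Fam71f2), in 2 of the 21 promoters of genes higher in CLA (9.52%; Gstk1 and Ppbp) in 12.2% of the 10794 promoters of all genes tested and in 16.3% of all 32851 promoters. ACGTG was present in 4 of 20 (20%), 4 of 21 (19.0%), 26.2% and 19.6% in the same order, and TGANTCA in 3 of 20 (15%), 4 of 21 (19.0%), 5.06% and 7.81%. The 3 windows with TGANTCA belong to Creb5 and Hilpda, whose 2 windows overlap and share 1 site. TGATGCAA was present in 1 of 20, the Atf3 promoter, in 0.63% of those of genes tested and in 0.895% of all. Promoters were found for 34 of the 39 genes, several of them with more than 1 start. A match is a description of the letters and no evidence of binding, and its absence from 300 bases says nothing about the factor.

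The transcript of the receptor itself was near 0, as were several liver genes above. Ppara was at 0.15 FPKM in Vehicle, 0.11 under CLA, 0.06 under GW6471 and 0.07 under both, under the filter for members. Its relatives were higher. Ppard was at 24.6, 19.8, 22.3 and 27.3 FPKM, Pparg at 8.06, 10.7, 9.28 and 9.68 FPKM, and Rxra, the partner of all of them, at 9.70, 10.7, 10.6 and 10.2 FPKM. Between CLA and GW6471 the log2 ratio was −0.17 for Ppard, 0.21 for Pparg and 0.01 for Rxra. Ppard and Pparg were looked up after the results were seen.

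Across the wider list of PPARα targets the difference rested on few genes. Of 42 genes in the list, 36 were listed and 27 tested, and of these 14 were lower in CLA than in GW6471 and 13 higher, close to the 48.5% and 51.1% of all genes tested. The median log2 ratio was −0.07, against 0.0066 over all genes. At least 1.5-fold lower were 7 (Pdk4, Acot1, Acot2, Cpt1a, Angptl4, Plin2 and Acadl), 5 of them 2-fold, and none was 1.5-fold higher, against 1.48%, 0.183% and 2.15% of all genes tested. At the other end stood Ech1 (0.51), Hadhb (0.43) and Acaa1a (0.38), enzymes of peroxisomal and mitochondrial β-oxidation. Ech1 was at 21.7 FPKM in Vehicle, 39.1 under CLA, 27.4 under GW6471 and 17.7 under both. The list thus holds members that were high in the libraries with GW6471 and members that were highest in CLA. The median of the list over Vehicle was 0.37 for CLA, 0.36 for GW6471 and 0.16 for CLA+GW6471, which share the Vehicle library. No measure in the table checks independently which libraries received the drug.

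**Figure D3:**
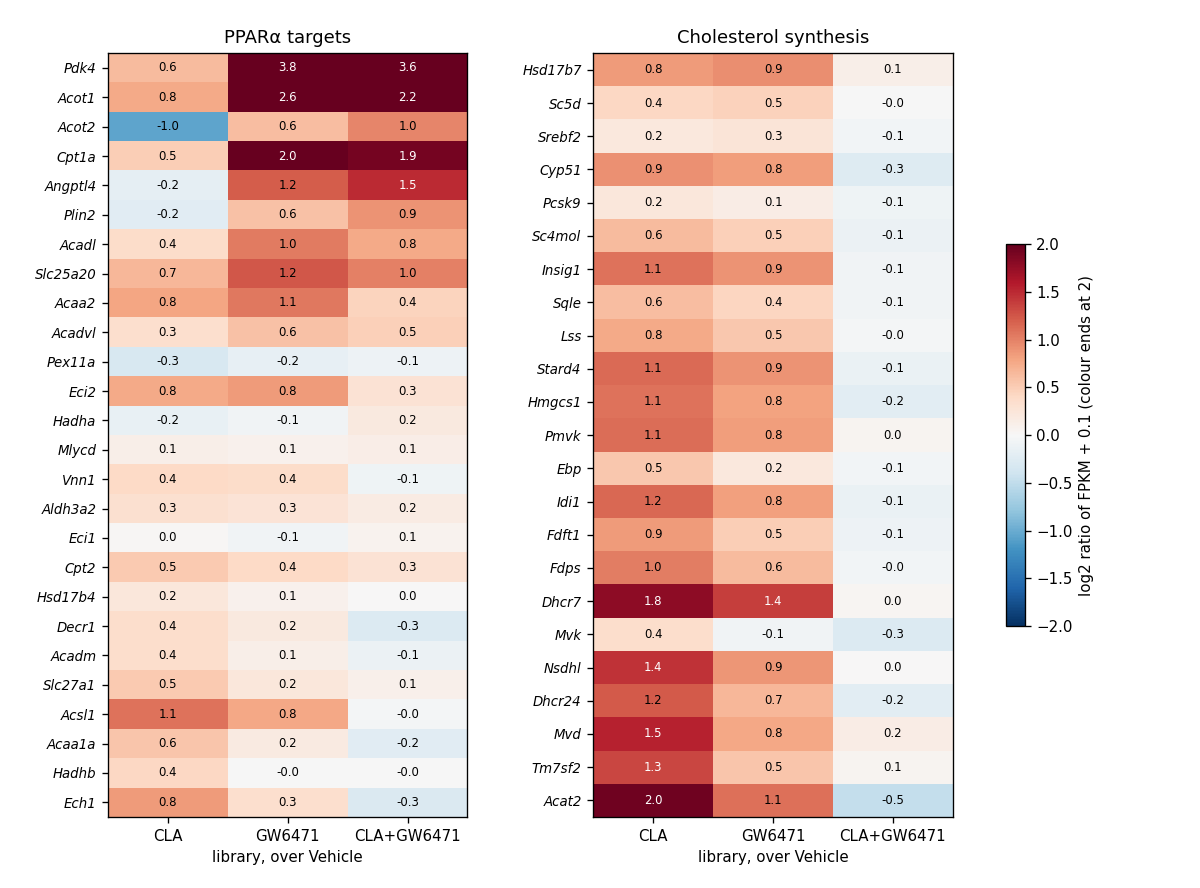
log2 ratio over Vehicle of FPKM + 0.1 in CLA, GW6471 and CLA+GW6471 for tested genes of the PPARα target list (left) and the cholesterol list (right), a few members of each left out, sorted by the ratio of CLA over GW6471 from lowest (top) to highest (bottom). The top genes on the left are deeply coloured in GW6471 and CLA+GW6471 but not in CLA, whereas most genes on the right are coloured in CLA and GW6471 and near 0 in CLA+GW6471. The 3 columns share the Vehicle library.

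Neighbouring lists of fat oxidation held genes of both directions. Among 24 genes of mitochondrial β-oxidation and the carnitine shuttle, 13 were higher and 11 lower in CLA with a median of 0.03, the values running from −1.52 for Cpt1a to 0.43 for Hadhb. Of 25 peroxisomal genes, 18 were higher with a median of 0.17. Over all genes tested 51.1% were higher. The highest there were Amacr, the racemase that prepares branched-chain fatty acids and bile acid precursors for oxidation (10.7, 16.4, 8.45 and 8.54 FPKM in Vehicle, CLA, GW6471 and CLA+GW6471, ratio 0.95), and Abcd2, a peroxisomal importer of very long-chain acyl-CoA (1.53, 8.61, 4.81 and 1.44 FPKM, ratio 0.83). In the lipid droplet list of 10 genes, Hilpda and Plin2 stood at the low end and G0s2, an inhibitor of the same lipase ATGL, at the high end with 13.3, 26.3, 17.6 and 10.3 FPKM and a ratio of 0.57. The 2 lipase inhibitors therefore had opposite orders between CLA and GW6471, while both were higher in GW6471 than in Vehicle.

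The second group, the genes at least 1.5-fold lower in CLA than in every other library, included transcription factors of stress responses beside Acot2 and genes of other kinds. Jun, a component of the transcription factor AP-1 that is induced within minutes of many stimuli, was at 17.5 FPKM in Vehicle, 8.02 under CLA, 18.7 under GW6471 and 22.3 under both. Its log2 ratio of CLA over GW6471 was −1.21 (counting interval −1.38 to −1.06). Atf3, a stress-induced repressor whose promoter carries the amino acid response motif shown above, was at 89.8, 42.3, 89.8 and 88.4 FPKM, a ratio of −1.08 (counting interval −1.17 to −0.998). For Atf3 the other 3 libraries were nearly equal. Creb5, a leucine zipper factor that pairs with Jun, was at 14.9, 9.09, 18.9 and 18.3 FPKM (ratio −1.05), and Fam171b, a membrane protein, at 15.5, 7.26, 14.7 and 16.9 FPKM (ratio −1.01).

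The list of immediate early and AP-1 genes as a whole was lower in CLA. Of 24 genes, 21 were lower than in GW6471, against 48.5% of all genes tested, with a median log2 ratio of −0.40, and CLA was the lowest of the 4 libraries for 18, against 34.6% of all genes. At least 1.5-fold lower were 4, against 1.48% of all genes: Jun, Atf3, Dusp1 and Dusp5. Dusp1, a phosphatase that switches off stress kinases, was at 70.4 FPKM in Vehicle, 39.6 under CLA, 72.6 under GW6471 and 90.6 under both (ratio −0.87). Klf2, a zinc finger factor of this list best known from endothelium, went the other way with 3.34, 7.04, 3.85 and 3.30 FPKM and a ratio of 0.85. The median of the list over Vehicle was −0.31 for CLA, −0.007 for GW6471 and 0.04 for CLA+GW6471, which share the Vehicle library.

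Most EGF family genes and p53 targets were also lower in CLA than in GW6471. Areg, an EGF receptor ligand released by injured epithelium, was at 411 FPKM in Vehicle, 145 under CLA, 289 under GW6471 and 406 under both, a log2 ratio of −0.99 (counting interval −1.06 to −0.93). Against 48.5% of all genes tested, 7 of 8 EGF family genes were lower in CLA, with a median of −0.31, and CLA was the lowest library for 5 (all genes 34.6%), Btc and Errfi1 following Areg at −0.51 and −0.49. Of 16 p53 targets 13 were lower, against the same 48.5%, with a median of −0.31, and CLA was the lowest library for 12, against 34.6% of all genes. Gdf15, a stress hormone, was at 219, 144, 258 and 295 FPKM (ratio −0.84), Btg2, an antiproliferative gene, at 34.8, 28.5, 49.5 and 38.6 FPKM (−0.80) and Sesn1, a stress-induced sestrin, at 1.69, 4.51, 2.66 and 1.49 FPKM (0.74).

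Genes of the integrated stress response followed in part. Of 23 genes under ATF4 19 were lower in CLA, against 48.5% of all genes tested, with a median of −0.20, Atf3 counting here too. Ppp1r15a, which lets translation resume after stress, was at 141 FPKM in Vehicle, 60.6 under CLA, 107 under GW6471 and 151 under both (ratio −0.81), and Nupr1 at 250, 111, 151 and 256 FPKM (−0.45). Atf4 itself was at 482, 506, 522 and 488 FPKM, a ratio of −0.04. The genes that make serine, Phgdh (0.05) and Psat1 (0.005), were also near 0. Of 23 chemokine and NF-κB genes, 18 were lower (all genes 48.5%) but with a median of −0.09, led by Cxcl2 (−0.82), Il1rn (−0.67) and Cxcl10 (−0.60). Il1rn, which encodes a natural antagonist of interleukin signalling, was at 34.3, 6.58, 10.6 and 36.7 FPKM, so that both single treatments were low.

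**Figure D4:**
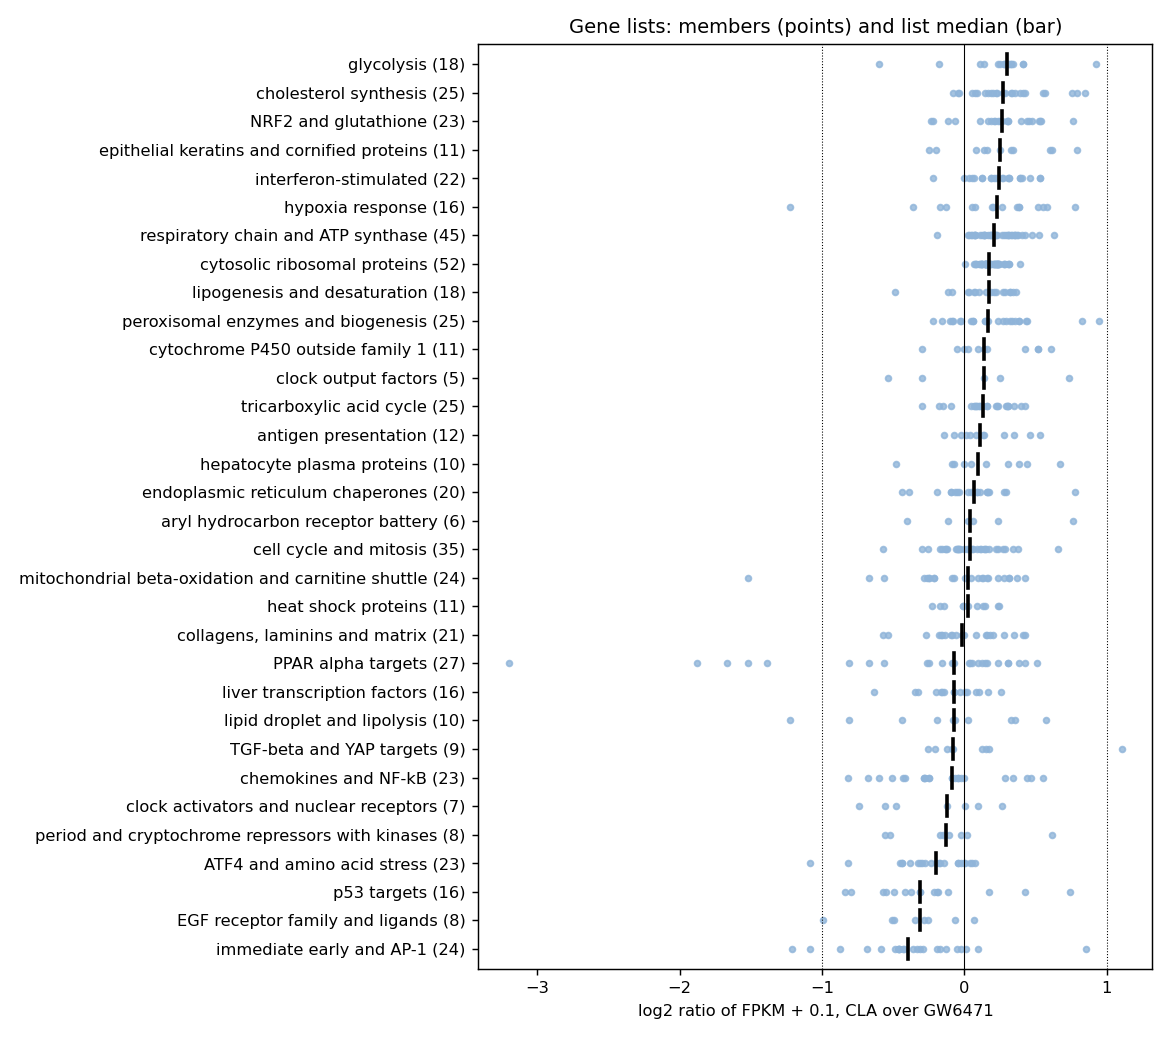
log2 ratio of CLA over GW6471 for the members (points) of 32 gene lists, sorted by list median (bar), with the number of tested genes in brackets. The solid line marks 0 and the dotted lines 2-fold. Medians run from −0.40 for immediate early genes to 0.30 for glycolysis, and the lowest points belong to the PPARα target list, whose median is near 0.

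Higher in CLA, the 3 genes of at least 5 FPKM past 2-fold were of unrelated function. Slco1a5, an uptake transporter for organic anions, was at 10.3 FPKM in Vehicle, 12.4 under CLA, 5.40 under GW6471 and 4.73 under both, a log2 ratio of 1.18 (counting interval 0.98 to 1.41). The 2 libraries with GW6471 were low and the 2 without it high, the mirror image of Pdk4. 1110058L19Rik, named Sdhaf4 by RefSeq and needed to assemble succinate dehydrogenase, was at 7.37, 11.5, 5.17 and 5.10 FPKM, a ratio of 1.14 (counting interval 0.74 to 1.60). Chst12, a sulfotransferase of chondroitin sulfate synthesis, was at 8.04, 16.7, 7.89 and 8.25 FPKM, a ratio of 1.07 (counting interval 0.90 to 1.27), so that CLA alone stood apart.

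Next in order were genes just under 2-fold. Acpl2 (0.99), Tff1 (a trefoil peptide, 0.96), Amacr (0.95), Ifi27l2a (interferon-inducible, 0.94), Avpr1a (a vasopressin receptor, 0.93), Aldoc (0.92), Gcat (threonine breakdown, 0.89), Olfml3 (a secreted glycoprotein, 0.89), Dcxr (a carbonyl reductase, 0.89), Acat2 (0.85), Entrez gene 100040298 (0.83) and Gm14288 (0.81) filled the list of 15. Aldoc, an aldolase of glycolysis, was at 4.98 FPKM in Vehicle, 25.7 under CLA, 13.5 under GW6471 and 3.76 under both. Avpr1a was at 7.04, 18.9, 9.87 and 4.64 FPKM. Both were highest in CLA, intermediate in GW6471 and lowest in CLA+GW6471.

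Of the genes past 2-fold, 17 were low, between a mean of 1 and 5 FPKM, and are named here after their values were seen. Hpgd, the dehydrogenase that inactivates prostaglandins, led with 2.33 FPKM in Vehicle, 7.45 under CLA, 2.01 under GW6471 and 1.01 under both, a log2 ratio of 1.84 (counting interval 1.49 to 2.31). Tgfbi, an extracellular matrix protein induced by TGF-β, was at 2.82, 10.3, 4.71 and 1.72 FPKM (ratio 1.11), and Cyp2c68, a cytochrome P450, at 1.37, 4.46, 1.66 and 0.50 FPKM (1.37). CLA was the highest of the 4 libraries for all these genes except Gm3448. The others were Serpinb11 (1.57), Ppbp (1.40), Fam101a (1.25), Gstm7 (1.25), Gchfr (1.24), Ly6f (1.22), B3gntl1 (1.22), Tprg (1.12), Krt33b (1.11), Psca (1.07), Coro6 (1.04), Gstk1 (1.004) and Mxd3 (1.003). Gm3448 was at 0.55 FPKM in CLA and listed at 0 in GW6471, with 2.22 in Vehicle and 1.73 in CLA+GW6471, and no fold is given for it.

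In cholesterol synthesis both single treatments stood above the other libraries, and CLA above GW6471. Of its 25 genes, 22 were higher in CLA than in GW6471, against 51.1% of all genes tested, with a median log2 ratio of 0.27, and CLA was the highest of the 4 libraries for 22, against 34.7%. None was 2-fold apart and 3 were at least 1.5-fold higher, Acat2, Tm7sf2 and Mvd, against 0.377% and 2.15% of all genes tested. Acat2, which condenses acetyl-CoA at the entry of the pathway, was at 3.14 FPKM in Vehicle, 12.4 under CLA, 6.88 under GW6471 and 2.22 under both, a ratio of 0.85 (counting interval 0.64 to 1.06). Tm7sf2, a sterol reductase, was at 2.76, 7.13, 4.08 and 2.87 FPKM (0.79), and Mvd, which makes isopentenyl diphosphate, at 4.58, 13.5, 7.94 and 5.10 FPKM (0.76).

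Hmgcs1 and Sqle differed less between CLA and GW6471. Hmgcs1, a synthase of the mevalonate pathway, was at 26.8 FPKM in Vehicle, 56.7 under CLA, 46.9 under GW6471 and 23 under both (ratio 0.27). Sqle, the squalene epoxidase, was at 107, 164, 143 and 102 FPKM (0.20). In both genes Vehicle and CLA+GW6471, the closest pair over all genes, were the low pair. CLA and GW6471, the second closest by the number of genes 2-fold apart, were the high pair. How many of all genes share this order was not counted. The list median over Vehicle was 0.92 for CLA, 0.64 for GW6471 and −0.07 for CLA+GW6471, which share the Vehicle library.

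Most lipogenic genes were higher in CLA by small amounts. Of 18 genes, 15 were higher than in GW6471 with a median of 0.17, none was 1.5-fold apart, and CLA was the highest library for 14, against 51.1%, 3.63% and 34.7% of all genes. Fasn, the fatty acid synthase, was at 32.0 FPKM in Vehicle, 52.4 under CLA, 40.7 under GW6471 and 27.1 under both (ratio 0.36). Srebf1, its regulator, was at 28.9, 38.1, 32.6 and 29.1 FPKM (0.22), while Scd1, the main desaturase, was slightly higher in GW6471 with 93.4, 132, 143 and 107 FPKM (−0.11). The lowest ratio was that of Dgat2, which makes triglyceride, at 1.65, 1.35, 1.93 and 3.28 FPKM (−0.49).

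Glycolysis had a median of 0.30, with 16 of 18 genes higher in CLA against 51.1% of all genes tested. Beside Aldoc these included abundant enzymes such as Tpi1, the triose phosphate isomerase, at 374 FPKM in Vehicle, 649 under CLA, 487 under GW6471 and 350 under both (ratio 0.41). Eno2, an enolase isoform known from neurons, had the reverse order with 12.7, 6.62, 10.1 and 14.4 FPKM (−0.60). In the hypoxia list, 12 of 16 genes were higher in CLA (all genes 51.1%) with a median of 0.23. Bnip3, a mitophagy receptor, was at 19.7, 79.9, 46.6 and 18.4 FPKM (0.78) and Pdk1, a relative of Pdk4, at 6.31, 15.6, 10.4 and 5.12 FPKM (0.58). Hilpda, described above, had the lowest ratio of the 4 hypoxia genes that were lower in CLA. Pdk1 and Pdk4, which phosphorylate the same enzyme, thus had opposite orders between CLA and GW6471.

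Antioxidant and interferon genes were mostly higher in CLA by small amounts. Of 23 NRF2 and glutathione genes, 19 were higher, against 51.1% of all genes tested, with a median of 0.26. In this list 1 gene was at least 1.5-fold higher, against 2.15% of all genes tested. It was Nqo1, a quinone reductase at 0.72 FPKM in Vehicle, 2.67 under CLA, 1.53 under GW6471 and 0.96 under both (ratio 0.77). The glutathione transferases Gstm7 (1.25) and Gstk1 (1.004) were past 2-fold but are outside this list. The glutathione transferase Gstm1 was at 43.3, 95.9, 66.2 and 38.8 FPKM (0.53). Hmox1, the heme oxygenase, went slightly the other way with 69.6, 94.3, 110 and 91.4 FPKM (−0.22). Of 22 interferon-stimulated genes, 20 were higher in CLA (all genes 51.1%) with a median of 0.24 but none by 1.5-fold, the largest being Irf7 and Psmb9 at 0.53. Cyp1a1, the sentinel gene of the aryl hydrocarbon receptor, was at 22.1, 76.1, 74.7 and 22.1 FPKM and did not tell the single treatments apart (ratio 0.03), although both stood more than 3-fold above the other 2 libraries.

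Transcript length moved with the ratio of CLA over GW6471 over all genes, and it bears on the lists of short genes. In 5 classes of about equal size, the share of genes higher in CLA was 74.9% among the shortest transcripts (median 1239 nt) and then 63.1%, 52.4%, 40.3% and 24.8% up to the longest (median 6257 nt). Class medians ran from 0.14 to −0.14. By GC content the class medians ran from −0.08 in the lowest class to 0.08 in the highest, while by level they ran from −0.02 to 0.05 without such an order. All 52 ribosomal protein genes tested were higher in CLA, with a median log2 ratio of 0.18, and 44 of 45 genes of the respiratory chain and ATP synthase were higher, with a median of 0.21, Cycs (cytochrome c, −0.19) being the exception. Ribosomal protein genes have many processed pseudogenes that can share reads, so single levels are uncertain. Both lists hold short genes, with median lengths of 872.5 and 1046 nt against 2961 nt over all genes. After the median of 10 length classes was removed from each gene, an alternative chosen after seeing the data, the medians were 0.05 for ribosomal proteins and 0.08 for the respiratory chain. The same step left 0.23 for cholesterol synthesis, 0.25 for glycolysis, 0.22 for NRF2 genes, 0.27 for interferon genes, −0.38 for immediate early genes and −0.05 for PPARα targets.

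**Figure D5:**
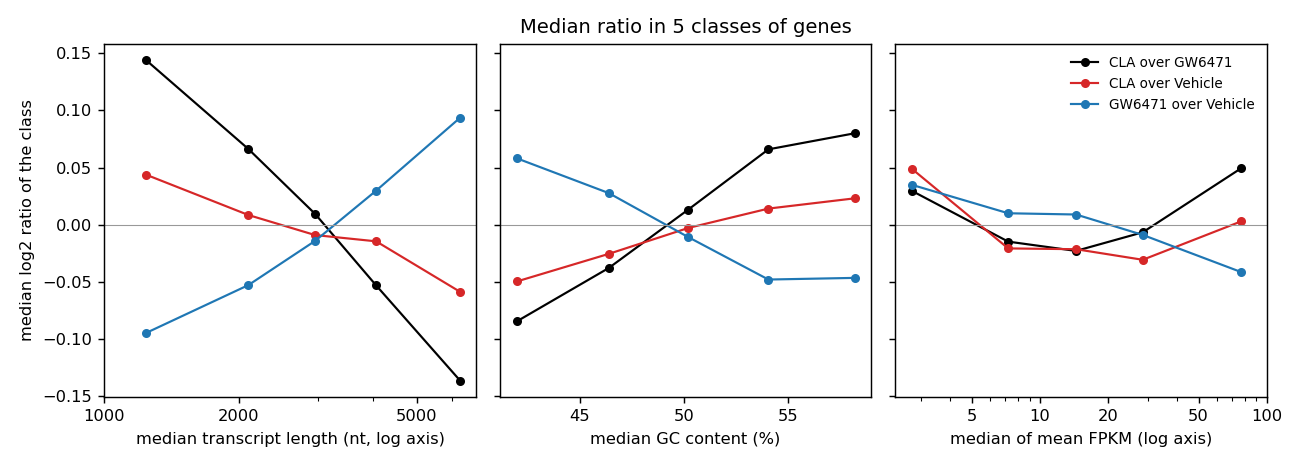
Median log2 ratio of genes in 5 classes of transcript length (left), GC content (middle) and mean level (right), for CLA over GW6471 (black), CLA over Vehicle (red) and GW6471 over Vehicle (blue). The black line falls from 0.14 in the shortest to −0.14 in the longest class, and the red and blue lines, which share the Vehicle library, run in opposite directions.

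Some clock genes were lower in CLA than in GW6471, while the medians of the clock lists were small. Clock, which with Arntl (BMAL1) forms the activator of the circadian loop, was at 5.94 FPKM in Vehicle, 3.54 under CLA, 5.99 under GW6471 and 6.80 under both, its log2 ratio being −0.74 (counting interval −0.91 to −0.61). Arntl was at 19.8, 11.6, 17.1 and 21.0 FPKM (−0.56). Among the repressors, Per1 was at 14.1, 9.91, 14.6 and 15.1 FPKM (−0.56) and Cry1 at 10.7, 4.63, 6.71 and 13.1 FPKM (−0.53). CLA was the lowest library for each of these 4 genes. For Clock and Per1 the other 3 libraries were close to each other, while for Cry1 the GW6471 library lay between CLA and Vehicle. Per2, with a mean of 0.97 FPKM, was under the filter at 0.97, 0.68, 1.1 and 1.11 FPKM.

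The nuclear receptors that repress Arntl did not tell CLA from GW6471. Nr1d1, which encodes REV-ERBα, was at 17.97 FPKM in Vehicle, 22.8 under CLA, 22.7 under GW6471 and 23.3 under both, a log2 ratio of 0.01 (counting interval −0.11 to 0.13). Nr1d2, which encodes REV-ERBβ, was at 9.78, 12.6, 13.8 and 9.94 FPKM (−0.12). Dbp, an output factor that CLOCK and BMAL1 drive, was higher in CLA at 0.77, 3.18, 1.87 and 0.82 FPKM (0.74), though at low levels. At zeitgeber time 8, a single time, a lower level and a shifted phase cannot be told apart. By list, 4 of 7 activators and nuclear receptors were lower in CLA (median −0.12), 6 of 8 repressors and kinases were lower (−0.13), and 3 of 5 output factors were higher (0.13), against 48.5% lower and 51.1% higher over all genes tested. Without the filter on level the last median turned to −0.22 and the first became 0. The first was −0.06 with length classes removed and −0.04 with length and GC classes removed.

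Enzymes of the tricarboxylic acid cycle were mostly higher in CLA by small amounts, 21 of 25 with a median of 0.13, and CLA was the highest library for 18. Of 11 cytochrome P450 genes outside family 1, 8 were higher with a median of 0.14, which was 0.014 without the filter on level, and CLA was the highest library for 8. Over all genes tested, 51.1% were higher and CLA was the highest library for 34.7%. Cyp2c68 (1.37), given above, is a cytochrome P450 outside this list. The remaining lists had medians nearer 0. They were the endoplasmic reticulum chaperones (0.07, 20 genes), heat shock proteins (0.02, 11), cell cycle genes (0.04, 35), aryl hydrocarbon receptor battery (0.04, 6, but 0.36 without the filter on level), antigen presentation (0.11, 12), TGF-β and YAP targets (−0.08, 9), collagens, laminins and matrix (−0.02, 21, but 0.10 with length classes removed) and liver transcription factors (−0.07, 16). The median of TGF-β and YAP targets turned to 0.06 with length and GC classes removed. Single members stood out in some of these lists. Hspa5, the main chaperone of the endoplasmic reticulum, was at 790 FPKM in Vehicle, 596 under CLA, 806 under GW6471 and 787 under both (ratio −0.44). Prox1, a hepatocyte transcription factor, was at 6.21, 5.78, 9.03 and 7.03 FPKM (−0.63), and Mmp13, a collagenase, at 961, 507, 755 and 1006 FPKM (−0.57).

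Epithelial and hepatocyte genes differed in level too. Of 11 genes in the list of keratins, cornified envelope proteins and some trefoil peptides, 9 were higher in CLA (all genes 51.1%). Their median was 0.25, which was 0.15 with length classes removed and 0.095 with length and GC classes removed. Their summed level, most of it Sprr1a, was 18191 FPKM in CLA and 20890 in GW6471. The highest ratios within this list were those of Tff2 at 48.0 FPKM in Vehicle, 50.8 under CLA, 29.3 under GW6471 and 41.3 under both (ratio 0.79) and Tff3 (0.62). Krt33b (1.11) and Tff1 (0.96), given above, are outside this list and had higher ratios. Of 10 tested hepatocyte plasma protein genes, 6 were higher, against 51.1% of all genes, with a median of 0.10 that was 0.31 at a mean of at least 5 FPKM. The summed level of the list was 5172 FPKM in CLA and 4331 in GW6471, against 3438 in Vehicle and 3439 in CLA+GW6471. Fgb was at 45.2, 138, 86.4 and 35.7 FPKM (0.67) and Alb at 680, 1322, 1067 and 620 FPKM (0.31). In bulk RNA, fewer cells of a type and less RNA per cell cannot be told apart.

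Markers of other cell types ranged from abundant to 0. Of 10 macrophage markers 2 were tested, Cd68 at 35.6 FPKM in CLA and 24.9 in GW6471 (ratio 0.52) and Cd14 at 27.6 and 21.0 FPKM (0.39), whereas Csf1r (0.91 and 0.73), Lyz2 (0.39 and 0.34) and Emr1 (0.08 and 0.02) were near 0. The summed macrophage list was 48.3 FPKM in Vehicle, 65.0 under CLA, 47.2 under GW6471 and 44.7 under both. Listed lymphocyte markers summed to at most 0.19 FPKM and endothelial ones to at most 1.03 in any library, with Ptprc and Cdh5 at 0.01 or less. Among stellate cell markers, Dcn was at 1506 and 1350 FPKM and Pdgfra at 2.65 and 2.02, while Acta2 was listed at 0 in both and Col1a1 was at 0.30 and 0.33. The bile duct list summed to 657 FPKM in CLA and 544 in GW6471, most of it Spp1 (574 and 453), with Sox9 lower in CLA (34.7 and 48.7, ratio −0.49), Krt7 at 23.1 and 18.4 and Krt19 near 0 (0.06 and 0.11). Adipocyte, red blood cell, and muscle and pancreas lists summed to at most 7.84, 2.11 and 5.85 FPKM. The part of these markers in the differences between CLA and GW6471 was not tested.

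For most of the 39 genes, the library that combined both treatments lay on the GW6471 side. It was below both single treatments for 16 of the 20 genes higher in CLA and above both for 9 of the 19 lower ones. Over all 10355 genes tested it was below both for 3997 and above both for 4149. On the log2 scale CLA+GW6471 was nearer to GW6471 than to CLA for all 19 genes lower in CLA and for 19 of the 20 higher ones. Among all 10355 genes tested it was nearer to GW6471 for 6832 and nearer to CLA for 3523 (34.0%). Vehicle was nearer to GW6471 for 10 of the 19 lower genes and 15 of the 20 higher ones. Among all 10355 genes tested Vehicle was nearer to GW6471 for 6720 and nearer to CLA for 3635 (35.1%). At the 1.5-fold limit, with 223 higher and 153 lower genes, CLA+GW6471 was nearer to GW6471 for 180 and 141, and Vehicle for 167 and 123. Both comparisons use the libraries that chose the genes, so these counts describe the pattern and do not test it.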

How the data were processed

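RNA labelled as liver, from male Kunming mice, was sequenced, 1 library for each of 4 conditions, assigned from their labels. The methods and the submitters' processing notes name BWA, Bowtie and Cufflinks with mm9, and no versions of them were found. The authors deposited the table as FPKM, rounded to 2 decimals and normalised to transcript length and mapped fragments. The unit is not named in the table and was taken from a supplement of the study. A small value can be rounded away and a 0 can be a failed estimate. All 4 columns were used, as deposited.

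FPKM + 0.1 was log2 transformed and genes with a mean of at least 1 FPKM over the 4 libraries were kept. The calculations used scipy 1.17.1, pandas 2.3.3 and numpy 2.4.6 in Python 3.11.15, with figures by matplotlib 3.10.9, and the steps were tested on simulated data. Genes without a symbol (107) or with a symbol turned into a date (25) were referred to by Entrez number. The table holds no counts. Depth, about 19100000 reads in GW6471 and 18800000 in CLA, was estimated from steps between low values of genes under 1000 nt with GENCODE vM1 lengths, known for 10233 genes, and gives approximate counting intervals. No test was made, since each condition has 1 library. Named were the 15 lowest and 15 highest ratios at a mean of at least 5 FPKM, the 3 largest absolute ratios in each of 32 lists, 8 marker lists and key genes of the clock, PPARα and sterol pathways. Further genes are named where their values help to read a list, chosen after their values were seen. The members and lists were chosen with earlier results of these data known. A few genes are not reported here. Alternatives were another pseudocount, filter, scaling or fold limit and the removal of length and GC classes.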

Additional observations from a re-analysis of the deposited data

How the results depend on the processing

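The number of genes past 2-fold depended on how low genes were treated. The 20 higher genes became 6 with a pseudocount of 1, 189 without a filter, 3 at a mean of at least 5 FPKM and 223 at 1.5-fold, and the 19 lower genes became 10, 144, 11 and 153. The share of higher genes among those called was 51.3%, and 37.5% with a pseudocount of 1, 21.4% at a mean of at least 5 FPKM, 43.2% with libraries scaled to the same sum (which shifts the median log2 ratio of all genes by −0.07) and 44.1% with length classes removed, but 57.4% with a pseudocount of 0.01, 56.8% without a filter, 59.3% at 1.5-fold and 53.7% with the filter over CLA and GW6471 alone. The rank of the pair CLA and GW6471 as second closest held under the 8 alternatives for which it was computed, which leave out the 1.5-fold limit and the filter over CLA and GW6471 alone. The share of higher genes with Vehicle nearer to CLA was 25% and became 37.0% with a pseudocount of 0.01, 43.9% without a filter and 13.3% with length classes, or length and GC classes, removed. The share with CLA+GW6471 nearer to CLA was 5% and became 18.5% with a pseudocount of 0.01 and 28.0% without a filter. For the lower genes, Vehicle was nearer to CLA in 47.4%, in 70% with a pseudocount of 1 and in 54.5% at a mean of at least 5 FPKM, and CLA+GW6471 in 0%, or 43.1% without a filter. The median of the clock output list turned from 0.13 to −0.22 without a filter and to −0.081 at a mean of at least 5 FPKM. Of 264 recomputed list medians 248 moved by under 0.1, and of 942 recomputed ratios of named genes 871 stayed within their limits and none changed sign past a call. The removal of length and GC classes and a filter over CLA and GW6471 alone were chosen after seeing the data. The causes were not tested. No paired analysis was possible because each condition has 1 library. Values of 2 decimals limit genes under 1 FPKM, and no difference between animals can be estimated.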
